A study of Mus musculus with 6 samples.

Results

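The 10 carbonic anhydrase genes Car2, Car3, Car4, Car6, Car8, Car9, Car10, Car11, Car12 and Car14 were measured on 6 arrays of mouse neurospheres, out of 19937 genes with a transcript cluster of their own. They were chosen by gene family with earlier results of these data known, and other genes of the family were left out. Car6 and Car10 were selected on their measured difference between treatments. All values of these 10 genes in that comparison are therefore given as a description and without a test. Each of the 10 had exactly 1 transcript cluster (a group of probes that covers 1 transcribed region), and the rule that takes the brightest cluster of a gene therefore removed none. The neurospheres, floating colonies formed by precursor cells, came from the hippocampus of adult male C57BL/6J mice aged 8 to 12 weeks. All of them grew in medium with EGF and bFGF and were collected on day 14, 3 cultures with 10 µM norepinephrine (N) and 3 with 15 mM potassium chloride (K), 1 array each. No untreated culture is among the arrays, so a value says how N and K differ and not which of them moved a gene. The labels call the cultures biological replicates of small neurospheres and do not say whether they came from separate mice. A neurosphere holds precursors beside the cells they give rise to, and in such bulk RNA fewer cells of a type and less RNA per cell cannot be told apart. The K arrays were less alike than the N arrays: K replicates 1 and 2 correlated with their own group at a mean r of 0.954 each and with the N arrays at 0.955 and 0.969, and K replicate 3 with its own group at 0.948. Values with each array left out are therefore given beside the results.

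Carbonic anhydrases convert carbon dioxide and water into bicarbonate and a proton, and back, at an active site built around a zinc ion held by histidines. The forms differ mainly in where they work: in the cytosol, on the outer face of the membrane, or outside the cell. In brain tissue they buffer the pH around active cells and feed bicarbonate transporters, and glia carry much of the activity. Some members of the family lack histidines of the zinc site and do not catalyse the reaction. These acatalytic proteins bind other proteins instead.

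Car10 and Car6 differed in opposite directions, and the other 8 genes had smaller differences. Car10 was 3.40-fold higher with N (log2FC of N minus K 1.76, standard error 0.22 from limma, n = 3 arrays per group), and Car6 was 2.81-fold lower with N (log2FC -1.49, standard error 0.40). Among the other 8 genes the log2FC ran from 0.02 for Car14 to 0.36 for Car12, with a median of 0.20, against a median of -0.03 over all genes tested. All 8 had a positive log2FC, as had 43.0% of all genes. Of the 8 further genes with a carbonic anhydrase domain, which are not among the 10, 4 had a positive log2FC. Those of Car1, Car13, Car15 and Ptprg were negative, so the shared sign holds for the genes chosen and not for the whole family. A log2FC over 1 in size was found for 2 of the 10 genes, and for 0.512% of all genes. The 3 N arrays lay entirely above the 3 K arrays for Car2, Car9 and Car10, which was so for 5.78% of all genes, and entirely below them for Car6, which was so for 7.55%. Together 4 of the 10 genes had groups that did not overlap, against 13.3% of all genes. Car6 and Car10 owe their place to these same values, and nothing is read from the counts.

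**Figure D1:**
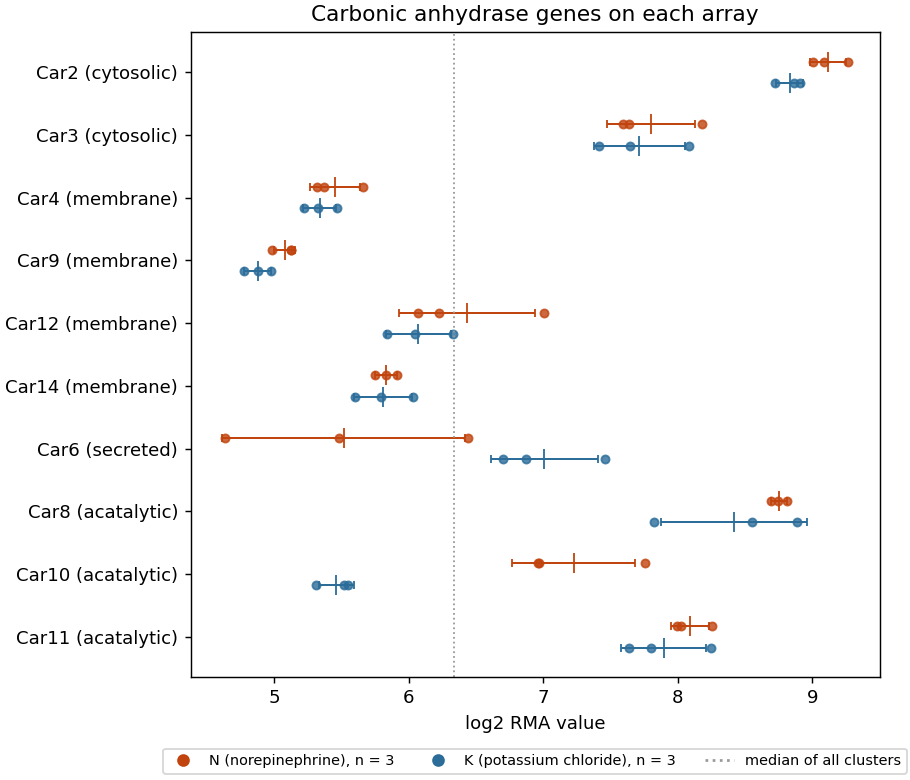
Log2 RMA values (horizontal axis) of the 10 carbonic anhydrase genes on the N arrays (n = 3) and the K arrays (n = 3) as points, with bars for mean ± SD and a dotted line at the median of all clusters, 6.34. Car10 and Car6 show the widest separation of the groups, in opposite directions, and positions of different genes on the axis do not compare their abundance.

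Car10 encodes an acatalytic, secreted member of the family that binds neurexins, adhesion proteins of the presynaptic membrane. On the N arrays it read 6.97, 6.96 and 7.75 (log2 RMA value, replicates 1, 2 and 3), and on the K arrays 5.52, 5.55 and 5.31. The lowest N array lay 1.41 above the highest K array. N replicate 3 stood 0.79 above the lowest N array, while the K arrays lay within 0.24 of each other. Means were 7.23 ± 0.46 with N and 5.46 ± 0.13 with K (SD, n = 3 arrays each). All 3 K values lay below the median over all clusters, 6.34, and all 3 N values above it. For Car10, leaving out N replicate 3 gave a log2FC of 1.50, and leaving out K replicate 3 gave 1.69. Over the 6 arrays left out in turn the log2FC lay between 1.50 and 1.90.

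On GRCm38.p6, Car10 lies on chromosome 11 from 93096805 to 93601751, and its RefSeq span overlaps those of Gm24856 and Gm35002. The RefSeq promoter windows (250 bases before to 50 after a transcript start) are shown for the genes whose groups differed most, Car10 and Car6, and for Car9. Car10 has 2 of them on the plus strand. Capitals mark matches to TGACGTCA (the cAMP response element, CRE), its core TGACG, and the hypoxia response cores ACGTG and GCGTG, searched on both strands. The CRE is the site of CREB, a factor that acts downstream of the messenger cAMP.

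Car10, chr11:93098116-93098415, plus strand: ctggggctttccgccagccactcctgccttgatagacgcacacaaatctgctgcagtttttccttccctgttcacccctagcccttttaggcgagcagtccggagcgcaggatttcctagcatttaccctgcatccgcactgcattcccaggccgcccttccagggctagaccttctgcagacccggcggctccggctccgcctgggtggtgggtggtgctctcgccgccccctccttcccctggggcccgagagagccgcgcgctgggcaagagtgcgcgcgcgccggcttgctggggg

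Car10, chr11:93099040-93099339, plus strand: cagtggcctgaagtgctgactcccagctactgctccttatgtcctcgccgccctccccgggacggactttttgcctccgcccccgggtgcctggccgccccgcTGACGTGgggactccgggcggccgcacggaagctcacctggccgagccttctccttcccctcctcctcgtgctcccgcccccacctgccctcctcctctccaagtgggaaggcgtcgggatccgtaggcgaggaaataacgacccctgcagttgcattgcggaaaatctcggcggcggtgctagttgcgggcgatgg

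The first Car10 window held none of the 4 motifs. The second held 1 match to TGACG at position -147 from the start and 1 to ACGTG at position -145, which share 3 bases, and no TGACGTCA. Of all 32851 promoter windows, 20.8% held TGACG, 19.6% ACGTG, 32.4% GCGTG and 1.79% TGACGTCA. Both Car10 windows were rich in G and C, at 66.3% and 67.7% against a median of 52.7%. A match describes the letters only, and whether it is bound was not measured.

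Car6 encodes the secreted carbonic anhydrase known from saliva. On the N arrays it read 4.63, 6.44 and 5.48 (log2 RMA value, replicates 1, 2 and 3), and on the K arrays 6.70, 7.46 and 6.87. The groups did not overlap, with the highest N array 0.26 below the lowest K array. N replicates 1 and 3 lay below the median over all clusters, 6.34, and the other arrays above it. The spread was wide: the N arrays covered a range of 1.80 and the K arrays one of 0.76, and the SD within groups, 0.70, was above that of 99.2% of genes. For Car10 the SD within groups was 0.34, and the median over all genes was 0.18. Means of Car6 were 5.52 ± 0.90 with N and 7.01 ± 0.40 with K (SD, n = 3 arrays each). Leaving out N replicate 1 brought the log2FC to -1.05, and leaving out N replicate 2 brought it to -1.95, the ends of the range over the 6 arrays. Without K replicate 3 it was -1.56.

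The highest Car6 value of either group came from replicate 2. Choroid plexus epithelium lies beside the hippocampus. Of its 8 measured markers 0 were called in either direction by limma (1 at an unadjusted p under 0.05, Otx2, lower with N). Of all 19937 genes, 1702 had an unadjusted p under 0.05 in the same fit. The brightest, Kcnj13 and Folr1, had log2FC of -0.12 and -0.02, and 1 of the 8 had a positive log2FC. Ttr had the largest difference, -0.43 (standard error 0.55), and read 5.90, 7.34 and 5.96 with N and 6.58, 8.04 and 5.86 with K. Ttr and Sostdc1 were, like Car6, highest in replicate 2 of either group, and the other markers were not. The summed level of the 8 ran from 9.05 to 9.37 on the N arrays and from 9.13 to 9.65 on the K arrays (log2). The part of this cell type in the Car6 values was not tested.

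Car6 lies on chromosome 4 from 150187015 to 150201135 (GRCm38.p6), with no other RefSeq gene in its span. Its promoter window is shown in the same way.

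Car6, chr4:150201086-150201385, minus strand: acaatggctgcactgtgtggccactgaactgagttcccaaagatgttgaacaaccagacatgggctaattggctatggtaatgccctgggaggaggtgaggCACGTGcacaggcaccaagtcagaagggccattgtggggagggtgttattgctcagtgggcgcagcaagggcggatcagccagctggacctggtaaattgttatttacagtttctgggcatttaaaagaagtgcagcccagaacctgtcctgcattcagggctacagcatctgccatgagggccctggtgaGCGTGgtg

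The window held ACGTG once on either strand, from positions -149 and -148, where the matches overlap in a palindrome, and GCGTG once at position 43 after the start. It held neither TGACG nor TGACGTCA. Its share of G and C was 54.0%, close to the median of all windows, and it held 4 CG pairs against 22 and 27 in the Car10 windows.

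Car8 and Car11 encode the other acatalytic proteins, and their differences were smaller than that of Car10. CAR8 binds the inositol trisphosphate receptor ITPR1 and is best known from Purkinje cells, and CAR11 is the close relative of CAR10. Car8 read 8.70, 8.74 and 8.81 on the N arrays and 7.82, 8.89 and 8.55 on the K arrays (log2 RMA value). K replicate 1 was low and the highest K array lay above every N array, so the groups overlapped. The log2FC of 0.33 (standard error 0.24) became 0.03 without K replicate 1 and 0.56 without K replicate 2. Car11 read 7.99, 8.25 and 8.03 on the N arrays and 7.64, 7.80 and 8.25 on the K arrays. K replicate 3 reached the N values, and the log2FC was 0.19 (standard error 0.17), 0.37 without that array and 0.06 without K replicate 1. Of the 3 acatalytic genes, Car10 alone had groups that did not overlap, as had 13.3% of all genes. Car10 was selected on these same values, so nothing is read from this contrast. Car11 had 2 promoter windows, each with 1 match to GCGTG, and Car8 had none among those used here.

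No binding partner analysed here passed the test, an adjusted p under 0.05 from limma, which 31 genes (0.155% of all genes) passed. The partners analysed here were 4 genes with a cluster of their own, the neurexin genes Nrxn2 and Nrxn3 and the inositol trisphosphate receptor genes Itpr2 and Itpr3. By limma 0 of the 4 passed after adjustment, and 0 had an unadjusted p under 0.05. Nrxn3 had a log2FC of 0.25 (standard error 0.14, adjusted p = 0.694 from limma) and Nrxn2 one of -0.01 (standard error 0.14, adjusted p = 0.988). Itpr2 and Itpr3 had -0.07 and -0.10. The median of the 4 was -0.04, next to -0.03 over all genes.

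Car2 and Car3 encode cytosolic enzymes, Car2 a fast one that is abundant in oligodendrocytes and choroid plexus, and Car3 a slow one known from muscle and fat. Car2 read 9.27, 9.00 and 9.08 on the N arrays and 8.72, 8.91 and 8.87 on the K arrays (log2 RMA value). Every N array lay above every K array, by 0.09 at the closest, and the log2FC was 0.29 (standard error 0.13), or 1.22-fold. It stayed between 0.21 and 0.34 with each array left out. Car3 read 7.64, 7.59 and 8.18 with N and 8.08, 7.64 and 7.42 with K, with groups that overlapped and a log2FC of 0.09 (standard error 0.22). Its sign turned without N replicate 3, at -0.10, and without K replicate 3, at -0.06. Beside Car2, of 14 measured markers of the oligodendrocyte lineage 0 were called by limma and 0 had an unadjusted p under 0.05, with a median log2FC of -0.07. The brightest, Olig1 and Olig2, had -0.25 and -0.20, and 4 of the 14 had a positive log2FC, the highest 0.11 for Sox10. The summed level of these markers lay between 11.55 and 11.69 on the N arrays and between 11.69 and 11.81 on the K arrays (log2), and the part of these cells in the Car2 values was not tested. Beside Car3, the 10 skeletal muscle markers had a median log2FC of -0.02, and 0 were called or had an unadjusted p under 0.05.

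On GRCm38.p6, Car2 and Car3 are neighbours on chromosome 3, at 14886269 to 14900770 and 14863538 to 14872381. Car13 and Car1, which also encode cytosolic enzymes, lie at the same locus in the RefSeq table. Car13 had a log2FC of -0.30 (standard error 0.22) and Car1 one of -0.15 (standard error 0.15), and neither was called by limma (adjusted p = 0.781 and 0.845).

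Car4, Car9, Car12 and Car14 encode enzymes that face the outside of the cell, Car4 on a lipid anchor and the others with a transmembrane segment. Car4, Car9 and Car14 read below the median of all clusters on all 6 arrays, and Car12 on 5 of them. Car9 encodes an enzyme induced by low oxygen and read 4.98, 5.13 and 5.12 on the N arrays and 4.77, 4.88 and 4.98 on the K arrays (log2 RMA value). Its groups were apart by only 0.01, and the log2FC was 0.20 (standard error 0.12). Car12, also known to respond to low oxygen, read 7.01, 6.23 and 6.07 with N and 5.84, 6.05 and 6.33 with K. N replicate 1 stood apart, and without it the log2FC of 0.36 (standard error 0.25) was 0.08. Car4, known from brain capillaries, read 5.66, 5.37 and 5.32 with N and 5.32, 5.22 and 5.47 with K, with a log2FC of 0.11 (standard error 0.14). Car14, known from neurons and their axons, read 5.91, 5.83 and 5.75 with N and 5.60, 5.80 and 6.03 with K, with a log2FC of 0.02 (standard error 0.14). Car4, Car12 and Car14 had groups that overlapped. The difference of Car4 was 0.01 without N replicate 1, and that of Car14 was -0.08 without K replicate 1 and -0.02 without N replicate 1.

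Car9 was dim, and its promoter window is shown with a hypoxia core before its start, a motif that 19.6% of all windows held.

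Car9, chr4:43506776-43507075, plus strand: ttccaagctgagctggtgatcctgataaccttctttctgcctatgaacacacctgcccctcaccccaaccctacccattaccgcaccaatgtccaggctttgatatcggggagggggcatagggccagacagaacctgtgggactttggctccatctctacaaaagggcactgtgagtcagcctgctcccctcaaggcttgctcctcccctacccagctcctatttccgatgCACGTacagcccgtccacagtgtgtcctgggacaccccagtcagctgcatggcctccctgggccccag

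In this window ACGTG stood once, on the minus strand, at position -18, and the other 3 motifs were absent. Car4 and Car14 held the same motif once each, at positions 3 and -7, and Car12 held none of the 4 motifs. In all, 7 of the 10 genes had a window, 9 windows together, and Car2, Car3 and Car8 had none among those used here. The spans of Arhgef39 and Tpm2 overlap that of Car9, and the span of Aph1a that of Car14.

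Genes that low oxygen is known to induce gave a mixed picture beside Car9 and Car12. After adjustment limma called 0 of 18 such genes, and 3 had an unadjusted p under 0.05, Bnip3 and Pdk1 higher and Slc2a1 lower with N. Of all 19937 genes, 1702 had an unadjusted p under 0.05. Bnip3, a mitophagy receptor gene, had a log2FC of 1.35 (standard error 0.25, adjusted p = 0.119 from limma). It was called with the replicate number as a block (adjusted p = 0.0478 from limma), and over all alternatives the smallest adjusted p among the 18 ran from 0.0478 to 0.606. Pdk1, which restrains pyruvate use in mitochondria, had 0.48 and the collagen hydroxylase gene P4ha1 had 0.33. The glucose transporter gene Slc2a1 had -0.38. The median of the 18 was 0.06, against -0.03 over all genes, and 11 of the 18 had a positive log2FC.

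**Figure D2:**
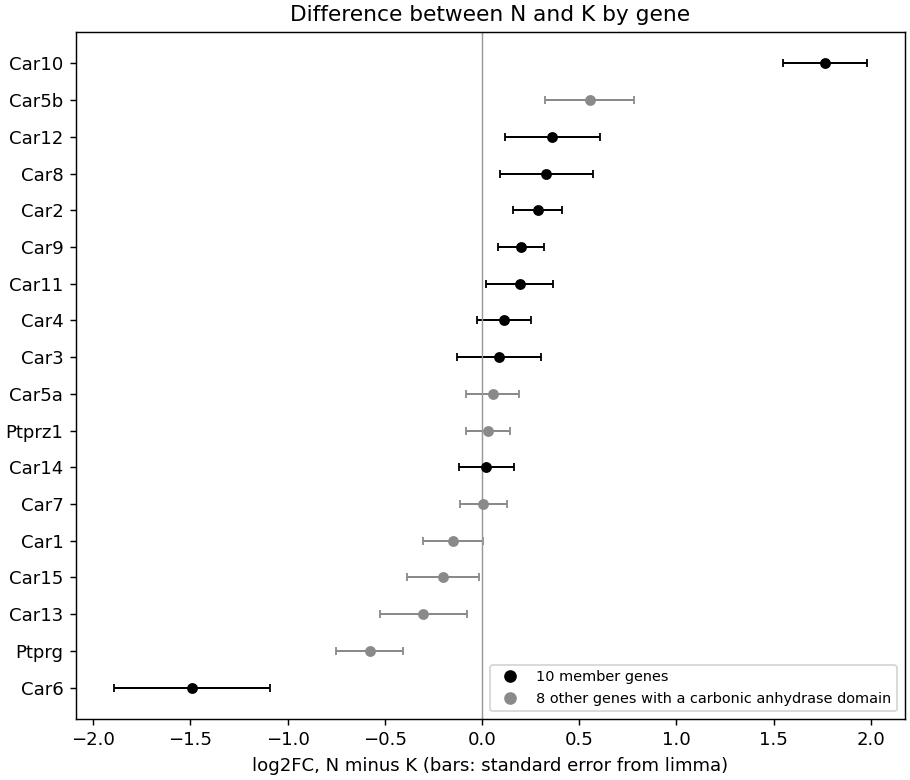
Differences on the horizontal axis (log2FC, N minus K) of the 10 member genes in black and 8 further genes with a carbonic anhydrase domain in grey, with bars for the standard error from limma. Car10 at 1.76 and Car6 at -1.49 lie at the ends, and the other 16 genes lie between -0.58 and 0.55.

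Further genes with a carbonic anhydrase domain did not pass the test. After adjustment limma called 0 of these 8, and 2 had an unadjusted p under 0.05. Ptprg, which encodes a receptor phosphatase with an outer carbonic anhydrase-like domain, had a log2FC of -0.58 (standard error 0.17, adjusted p = 0.368 from limma). Its means were 8.90 ± 0.15 with N and 9.48 ± 0.30 with K (SD, n = 3 arrays each), and its groups did not overlap. Ptprz1, the related phosphatase of glia and precursors, had 0.03 (standard error 0.11). Car5b, a mitochondrial enzyme gene, had 0.55 (standard error 0.23, adjusted p = 0.553 from limma) and groups that overlapped, while its mitochondrial relative Car5a had 0.05. Car7 and Car15 had 0.01 and -0.20. The median of the 8 was -0.07.

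Genes that carry bicarbonate and protons across membranes did not pass either. Of 14 measured bicarbonate transporters 0 were called by limma, with 2 at an unadjusted p under 0.05, against 1702 of all 19937 genes. Slc4a10, a sodium-driven bicarbonate carrier of neurons and choroid plexus, had a log2FC of 0.67 (standard error 0.20, adjusted p = 0.369 from limma), and Slc4a2, an anion exchanger, -0.51 (standard error 0.13, adjusted p = 0.294). The groups of both did not overlap. Slc4a4, the sodium bicarbonate cotransporter of astrocytes, had 0.25 (standard error 0.13), and Slc4a3 had -0.18 (standard error 0.12). The median over the 14 was -0.08. Of 16 measured genes of proton transport and acid sensing 0 were called, with 2 at an unadjusted p under 0.05. These were the exchanger genes Slc9a9, with a log2FC of 0.46 (standard error 0.18), and Slc9a7, with -0.60 (standard error 0.24). The acid-sensing channel genes Asic1 and Asic3 had -0.26 and -0.29, and the median of the 16 was -0.03. An ordinary linear model without moderation called 1 gene over all genes, so 0 calls in a short list says little there. These lists, those of the binding partners, the hypoxia genes and the further family members had 0 genes called in it. At an unadjusted p under 0.05 it had 2 bicarbonate transporters, 0 proton transport genes, 0 partners, 2 hypoxia genes and 1 further family member. Over all genes it had 1402.

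Of 10 astrocyte markers limma called 1, and 5 had an unadjusted p under 0.05, all higher with N. Over all 19937 genes, 1702 had an unadjusted p under 0.05. The marker called was the intermediate filament gene Gfap, at 8.14 ± 0.34 with N and 6.48 ± 0.30 with K (SD, n = 3 arrays each, log2FC 1.66, standard error 0.21, adjusted p = 0.0358 from limma). Gfap lost this call in 9 of 13 alternatives, each of the 6 arrays left out among them, where its log2FC stayed between 1.46 and 1.81 (adjusted p from 0.00887 to 0.486 over the 13). In 7 of the 10 every N array lay above every K array, as it did in 5.78% of all genes. The calcium-binding protein gene S100b had a log2FC of -0.47 (standard error 0.30), the only negative one of the 10, and its groups overlapped, as did those of Gjb6 and Slc1a3. The summed level of the 10 ran from 12.63 to 12.85 on the N arrays and from 12.25 to 12.37 on the K arrays (log2), with no overlap. Gfap was highest in N replicate 3 (8.53, against 7.90 and 7.98 in the other N arrays), as were Aqp4 (8.37, against 7.65 and 7.32) and Car10. On the K arrays the order differed: Gfap and Aqp4 were highest in K replicate 3 (6.79 and 6.36), where Car10 was lowest (5.31). The median log2FC of the 10 markers was 0.37, below the value of Car10, while the highest, Gfap at 1.66 and Aqp4 at 1.56 (standard error 0.24), lay near it. The part of astrocytes in the Car10 difference was not tested. The brightest astrocyte markers, Slc1a2 and Slc1a3, had log2FC of 0.87 and 0.15.

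No marker on the lists of other cell types was called by limma. Of 9 precursor markers 3 had an unadjusted p under 0.05, 2 higher with N and 1, Nes, lower with N (log2FC -0.53). The brightest, Fabp7 and Vim, read 12.81 and 11.75 on average with N and 12.82 and 11.31 with K. Of 10 neuron markers 3 had an unadjusted p under 0.05, 2 higher and 1 lower with N, and the brightest, Map2 and Snap25, had log2FC of -0.32 and 0.81. The 9 endothelial and 10 microglial markers had 0 genes at an unadjusted p under 0.05, with medians of -0.06 and -0.12. Their brightest, Cldn5 and Flt1, and Cx3cr1 and Tmem119, had log2FC between -0.18 and 0.08. Array values have no true zero, so none of these markers can be called absent.

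**Figure D3:**
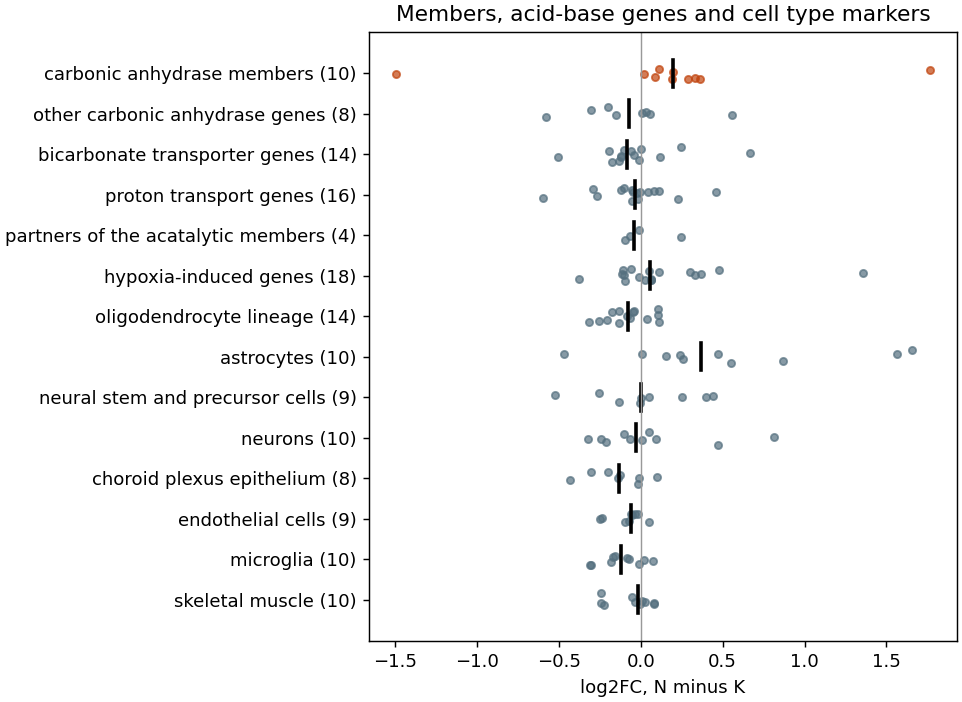
Horizontal positions give the log2FC (N minus K) for the 10 carbonic anhydrase genes and for the measured genes of each list, as points spread vertically for legibility, with a black bar at each median and the number of genes in brackets. The members' median is 0.20 and the astrocyte median 0.37, and the other medians lie between -0.13 and 0.06.

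The pattern of Car10 over the 6 arrays was most like those of Liph, Gtpbp10, Clu and Tagln2, with Pearson r from 0.991 to 0.994 among 11223 genes searched. All 4 were higher with N, with log2FC of 1.03, 0.76, 1.46 and 0.82. The pattern of Car6 was most like those of Upk2, Ptpn13, Spon1 and Tbl1xr1, with r from 0.979 to 0.986 among 11681 genes, and their log2FC, -0.13, -0.22, -0.47 and -0.28, were far smaller than that of Car6. An r above 0.95 with Car10 was reached by 60 genes and with Car6 by 9. These correlations rest on 6 arrays that share a treatment in threes, and they describe likeness only.

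**Figure D4:**
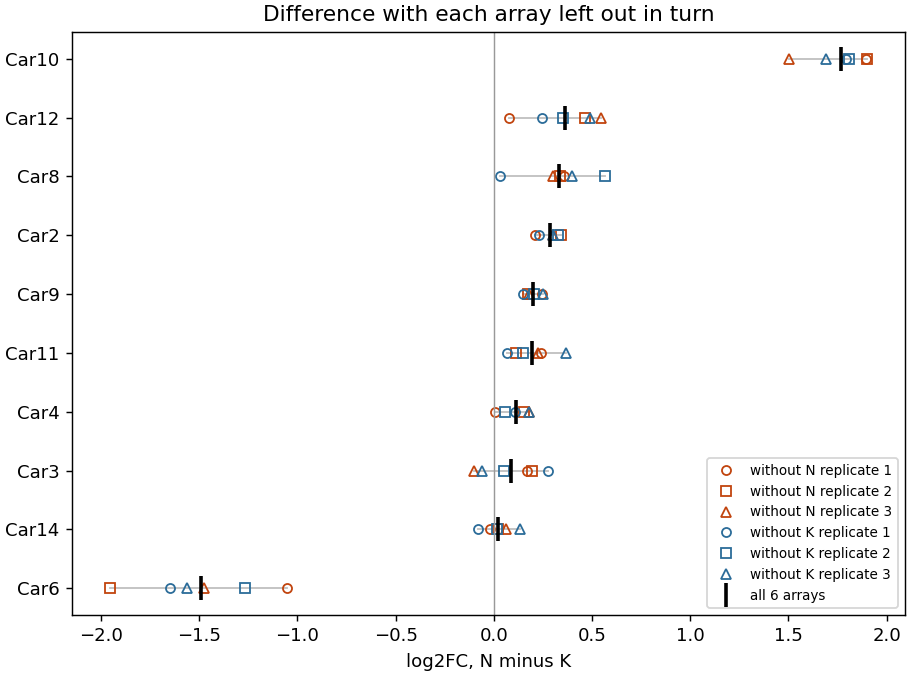
Log2FC of N minus K (horizontal axis) of each carbonic anhydrase gene with all 6 arrays (black bar) and with each array left out in turn (open symbols, orange for N and blue for K). Car10 stays between 1.50 and 1.90 and Car6 between -1.95 and -1.05, while Car3 and Car14 reach both sides of 0.

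With only 3 arrays in each group every value is imprecise, and an exact permutation test of 1 gene cannot give a p under 0.1.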

How the data were processed

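RNA of 6 neurosphere cultures was converted by the authors to cDNA, which was labelled with biotin and hybridised to Affymetrix whole-transcript mouse arrays. The deposited log2 values come from RMA in Partek Genomics Suite, named in the methods and the submitters' processing notes, with versions not given in the sources used here. RMA corrects the background, normalizes arrays to each other and gives 1 value per transcript cluster, which compresses fold changes of dim genes. Scanner files were not used here, so background correction was not varied. Values ran from 1.57 to 14.1, with array medians between 6.30 and 6.40, and pairwise r between arrays was 0.940 to 0.973.

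Of 34760 clusters, 21640 had 1 gene symbol, 1321 several and 11799 none in the platform annotation. The 1-symbol clusters gave 19937 genes, the brightest cluster standing for each. Differences between N and K were estimated in R 4.3.3 using lmFit and eBayes of limma 3.58.1 (4 residual and 4.59 prior degrees of freedom), and p-values were adjusted by Benjamini-Hochberg over all genes. The fit was tested on simulated data. Summed levels are log2 of the sum of linear values over a list. Members, lists and the rule for named genes (all members, the genes of each list that passed or else the 4 with the smallest P, the 2 brightest markers of each cell type, and the 4 genes most like Car6 and Car10) were chosen with earlier results of these data known. Alternatives were the replicate number as a block, no moderation, eBayes with trend and robust, quantile normalization, median centring, genes above the median intensity, the mean of all clusters, and each array left out. Coordinates and promoter sequences are those of RefSeq on GRCm38.p6, and plots were made in Python 3.11.15 using matplotlib 3.10.9.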

Additional observations from a re-analysis of the deposited data

How the results depend on the processing

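The labels number the replicates 1 to 3 in both groups. Same-numbered arrays deviated from their group means with correlations across genes of 0.04, 0.04 and 0.12. Replicates 2 and 3 correlated best with their own number and replicate 1 did not, and the numbers were not taken to pair the samples. With the replicate block 41 genes were called in place of 31, and 1 hypoxia-induced gene, Bnip3, in place of 0. The standard error of the Car6 log2FC was 0.20 with the block and 0.40 without it. Over all genes, 1 gene was called without moderation, 12 with quantile normalization and 3 with median centring (1402, 1742 and 1662 at an unadjusted p under 0.05). Leaving out 1 array gave 0 to 21 calls by limma. It fell to 0 when K replicate 1, N replicate 1 or N replicate 2 was dropped (1334, 1251 and 1274 at an unadjusted p under 0.05). It was 4 with N replicate 3 left out, 9 with K replicate 3 left out and 21 with K replicate 2 left out. Quantile normalization and median centring moved the median of all genes by 0.02 and 0.03. With genes above the median intensity only, 2 carbonic anhydrase genes, Car2 and Car10, had groups that did not overlap, since Car4, Car6, Car9, Car12 and Car14 were not in that fit and have no value there. The K values of Car10 lay below that limit, so it entered through its N values. With quantile normalization and with median centring each log2FC of the 10 genes moved by less than its SD within groups. Leaving out 1 of 3 arrays cannot move it by more than that SD, so those runs could not fail this criterion. The block, the mean of all clusters and the intensity limit left the log2FC of each gene in the fit unchanged. The lists of further family members, bicarbonate transporters, proton transport genes and binding partners had 0 calls in every alternative run. The runs with 0 calls over all genes could give no other result. Gfap was rerun in the same alternatives after its value was seen, and marker lists were not otherwise rerun.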
